A study of Mus musculus with 4 samples.

Results

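The aminoacyl-tRNA synthetase genes were taken by symbol from the deposited gene table, which held 54532 genes. All 36 listed symbols were found, 20 for cytosolic and 16 for mitochondrial enzymes. Each had at least 1 CPM on average (CPM, counts scaled to a common library size) and passed the filter on low counts. No expression value entered the choice of these genes, but the set was proposed with earlier results of these data known.

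Aminoacyl-tRNA synthetases join each amino acid to its transfer RNA, the step that fixes the meaning of the genetic code. A cytosolic set supplies the ribosomes that translate nuclear messages. A separate set, also encoded in the nucleus, is imported into mitochondria and supplies the ribosomes that make respiratory chain subunits. The glycine and lysine enzymes of both compartments come from the genes Gars and Kars. Several cytosolic enzymes are held in a multisynthetase complex, many of their genes are known targets of the amino acid stress factor ATF4, and Wars is a known interferon-induced gene.

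Polyadenylated RNA was sequenced from macrophages raised in culture from mouse bone marrow, for 6 days with 20% L929-conditioned medium as the source of growth factor. The C57BL/6 mice were 6 to 8 weeks old. By the series' design, floxed Fbxw7 alleles were shared by every group. Fbxw7 encodes the substrate-binding subunit of a ubiquitin ligase. In the titles, by that design, WT stands for the floxed alleles alone and KO for the same alleles with LysM-cre, a recombinase driven in myeloid cells from the lysozyme locus. Cells of each title stayed untreated or received 3 h of lipopolysaccharide (LPS), a bacterial cell wall component sensed by TLR4; its dose was not stated. How many animals gave each library was not stated. The 4 groups held 1 library each, so a ratio between 2 libraries has no replicate check and carries no p-value. Its 95% interval covers counting error only. Levels are given as CPM scaled by the TMM method, in the order untreated WT, untreated KO, LPS WT, LPS KO. In bulk RNA, fewer cells of a type and less RNA per cell cannot be told apart.

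Total counts lay between 17610372 and 23835940 per library, and a gene at 0 counts could lie as high as 0.108 to 0.184 CPM. The labels were not free of contradiction. By their genotype tags, the untreated pair would be floxed only and the LPS pair would carry cre, whereas the titles cross genotype with treatment; groups followed the titles. Fbxw7, the targeted gene, stood at 17.9, 17.2, 9.90 and 11.7 CPM, which did not separate the titles, although a count over the whole gene does not test for a missing exon. Lyz1, the neighbour of the lysozyme gene that carries the cre insertion, stood at 2.86, 32.9, 33.1 and 2.63 CPM and so paired the untreated KO library with the LPS WT library. Lyz2, the gene at the LysM locus itself, stood at 15253, 8711, 9917 and 18238 CPM and was lower in the same pair of libraries. The main results that depend on the pairing are therefore also given with the titles of the LPS libraries exchanged, in the order LPS KO over untreated WT, then LPS WT over untreated KO. All 6 macrophage markers were present, with a summed level of 5910 to 7283 CPM. The summed markers of mast cells, dendritic cells, neutrophils, T cells, erythroid cells and fibroblasts stayed at or below 13.1 CPM. Some of them moved with LPS. The dendritic cell sum stood at 1.45, 1.81, 13.1 and 9.24 CPM, nearly all of it Xcr1 after LPS, which rose (4.02, log2, adjusted p = 0.0152 in the edgeR model described later). Zbtb46 of the same list lay the other way, at 0.862, 0.579, 0.058 and 0.245 CPM, with an effect of −2.20 that did not pass. Flt3 was at or below 0.325 CPM. The T cell sum stood at 0.27, 0.58, 3.20 and 6.06 CPM, nearly all of it Lck after LPS (4.55, adjusted p = 0.0192), while Cd3e, Cd3d and Cd3g were at or below 0.181 CPM. The part of these markers in the results was not tested. Those of B cells lay between 9.96 and 31.6 CPM, nearly all of it Cd79b. Retnlg, Cd209a, Hbb-bs, Hbb-bt and Mcpt4 had 0 counts in every library.

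Promoters are shown first, because they could be compared between cytosolic and mitochondrial members without use of any expression value. RefSeq promoters (GRCm38.p6, 250 bases before to 50 after the start) were matched for 27 members, 13 cytosolic and 14 mitochondrial. The motif TGATGNAA is the core of the C/EBP-ATF response element that ATF4 binds with its partners. Searched on both strands, it lay in the promoters of 5 of the 13 cytosolic members (38.5%) and of 0 of the 14 mitochondrial members, beside 4.51% of the 27025 genes with a promoter. The cytosolic members were Aars, Gars, Iars, Tars and Yars. The matches of Gars, Iars, Tars and Yars are shown in windows of 30 bases, 5′ to 3′ on the gene's strand, with TGATGNAA or its reverse complement in capitals.
Gars, chr6:55037960-55037989, plus strand: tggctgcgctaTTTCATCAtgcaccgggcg
Iars, chr13:49682126-49682155, plus strand: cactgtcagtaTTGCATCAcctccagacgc
Tars, chr15:11399655-11399684, minus strand: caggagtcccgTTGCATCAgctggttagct
Yars, chr4:129189895-129189924, plus strand: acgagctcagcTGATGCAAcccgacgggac
The Gars match began 30 bases and the Tars match 15 bases before the start, and those of Iars and Yars lay just after it. In each of these genes but Yars the motif lay on the strand opposite to the gene.

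The whole upstream sequences of Gars and of Aars2 are shown in full, a cytosolic member with a match near the start and a mitochondrial member without one (shown at the first of its listed starts). Aars2 was picked for its LPS effect, the lowest of all members. Among the cytosolic members, Eprs, Farsa and Kars had no match either, and Rars and Wars were not among the 27.
Gars, chr6:55037751-55038000, plus strand: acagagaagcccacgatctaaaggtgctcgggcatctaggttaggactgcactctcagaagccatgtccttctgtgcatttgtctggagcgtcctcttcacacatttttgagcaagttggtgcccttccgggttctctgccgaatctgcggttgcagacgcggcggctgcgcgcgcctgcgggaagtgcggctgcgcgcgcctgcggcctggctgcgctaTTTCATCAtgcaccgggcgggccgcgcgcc
Aars2, chr17:45506582-45506831, plus strand: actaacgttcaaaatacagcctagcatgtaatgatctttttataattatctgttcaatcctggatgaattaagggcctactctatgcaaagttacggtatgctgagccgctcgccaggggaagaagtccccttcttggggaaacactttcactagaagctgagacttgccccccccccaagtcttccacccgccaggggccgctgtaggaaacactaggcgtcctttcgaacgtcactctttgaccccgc
The sequence CACGTG, the E-box bound by MYC and related factors, lay in 5 of the 27 promoters (Aars, Farsb, Iars, Tars and Ears2), beside 8.09% of all genes. The core of the interferon-stimulated response element lay in 1 promoter, that of Qars, beside 3.99% of all genes. No match of one motif overlapped a match of another in these promoters. A match describes the letters and is not evidence that a factor binds there.

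Cytosolic enzymes were the more abundant set per length. By the authors' FPKM, which divides by gene length, the median cytosolic member stood at 14.0, 14.5, 16.1 and 18.1 and the median mitochondrial member at 2.31, 2.05, 1.21 and 1.35. Nars, the asparagine enzyme, ranked first with a mean of 95.7 FPKM (90.4 to 105 over the libraries). Rars, the arginine enzyme, followed at 36.6 (16.7 to 68.2), then Hars, the histidine enzyme, at 27.9 (20.1 to 36). The ranges of Rars and Hars overlapped, while that of Nars lay above both. The lowest were Nars2 at 0.58 FPKM and Mars2 at 0.45, whose ranges also overlapped. The order was nearly split by compartment. Rars2, Hars2 and Iars2 were the only mitochondrial members to rank above a cytosolic one, and the cytosolic members they passed were Cars and Yars.

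**Figure D1:**
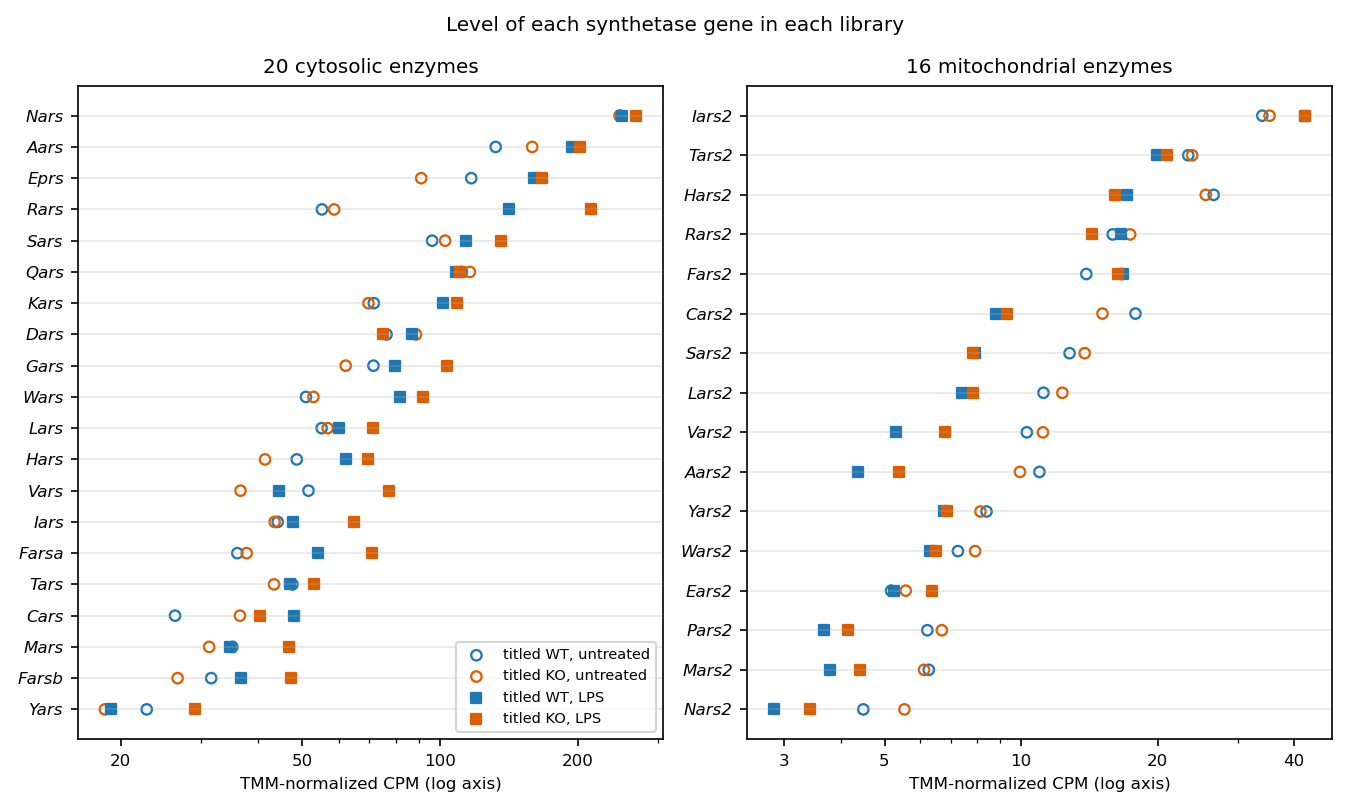
Level of each of the 36 synthetase genes in each of the 4 libraries (TMM-normalized CPM, log axes), with cytosolic members at left and mitochondrial members at right. Open circles are untreated and filled squares LPS libraries, blue titled WT and orange titled KO; levels compare along a row, not between genes. The Rars squares lie at 141 and 214, far right of its circles at 55.2 and 58.6, while the Aars2 squares at 4.37 and 5.38 lie left of its circles at 11.0 and 9.94.

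The balance between the compartments differed between untreated and LPS libraries, and this comparison needs no scaling between libraries. Mitochondrial members took 13.1% (12.7 to 13.4, exact binomial 95% interval) of all synthetase counts in the untreated WT library and 13.5% (13.2 to 13.8) in the untreated KO library. They took 8.99% (8.69 to 9.30) in the LPS WT library and 8.03% (7.75 to 8.31) in the LPS KO library. Both LPS libraries lay below both untreated libraries, with no overlap of intervals, so the statement does not depend on which LPS library belongs to which title. By FPKM the shares were 10.8, 11.2, 7.29 and 6.30%. Without Rars, the member with the largest LPS effect, they were 13.5, 14.0, 9.70 and 8.88%. All members together took 0.206, 0.190, 0.160 and 0.187% of their libraries.

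The shift was also seen when the same counts were taken within 14 pairs of genes for the cytosolic and the mitochondrial enzyme of the same amino acid. The pairs reuse the counts of the share and are not separate support for it. The count of the mitochondrial gene per 100 counts of its cytosolic counterpart was lower after LPS in 13 of 14 pairs within the WT titles and in 14 of 14 within the KO titles. The interval lay wholly below no change in 11 pairs within both titles, and in 12 pairs when the LPS titles were exchanged. These intervals cover counting error only, and the share among other pairs of genes was not determined. The median change was −0.73 (log2) within WT and −1.02 within KO. For arginine, Rars2 per 100 Rars went from 28.9 and 29.7 in the untreated libraries to 11.7 and 6.68 after LPS. For alanine, Aars2 per 100 Aars went from 8.29 and 6.25 to 2.24 and 2.65. For cysteine, Cars2 per 100 Cars went from 67.9 and 41.4 to 18.4 and 23.1. Isoleucine was the exception, with 77.1 Iars2 per 100 Iars in the untreated WT library and 88.8 in its LPS counterpart. In the KO titles the Iars2 value went from 81.2 to 65.5.

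**Figure D2:**
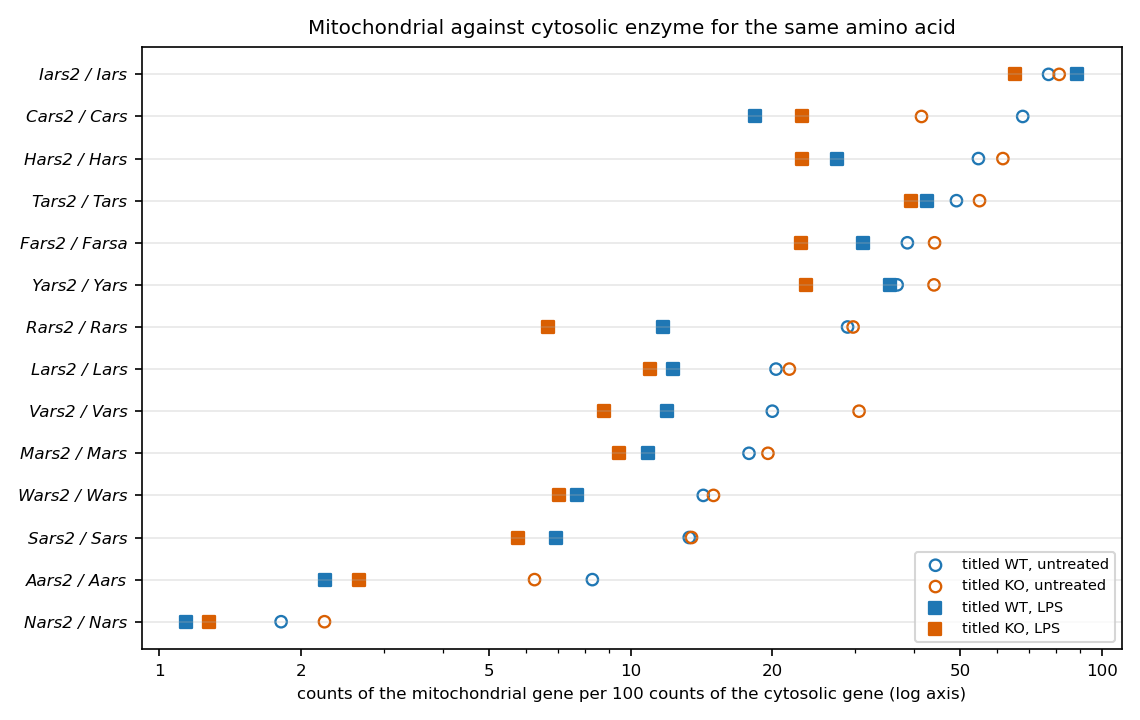
Counts of the mitochondrial gene per 100 counts of the cytosolic gene for the same amino acid (log axis), in 14 pairs and 4 libraries. Circles are untreated and squares LPS libraries, blue titled WT and orange titled KO. In 13 pairs both squares lie left of both circles; Iars2 / Iars is the pair where the LPS WT square, at 88.8, lies furthest right.

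Among the cytosolic enzymes, Rars passed the test for an LPS effect common to both titles. Rars (ENSMUSG00000018848, chromosome 11, 35808381 to 35834506, minus strand, mm10) encodes arginyl-tRNA synthetase, a member of the multisynthetase complex. It stood at 55.2, 58.6, 141 and 214 CPM. Both LPS libraries were above both untreated ones, by 2.56-fold (2.39 to 2.75) within WT and 3.65-fold (3.44 to 3.88) within KO. With the LPS titles exchanged the ratios were 3.89 and 2.41. In the additive model fitted over all 4 libraries with edgeR (quasi-likelihood F test), which leaves 1 residual degree of freedom, Rars rose by 1.65 ± 0.25 (log2 ± SE, adjusted p = 0.0188). It passed in 12 of 12 settings, with effects from 1.08 to 1.96, library totals included. By the authors' deposited table, which compared 1 library with 1 library, the Rars log2 folds were 1.39 within WT and 1.87 within KO. Of all 13989 genes tested, 9.35% rose and 5.14% fell, so 1 of 36 members rising lay below the background share.

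No mitochondrial or other cytosolic member passed that test. With edgeR, 0 members fell, and 9 of 36 had an unadjusted p under 0.05 (6 cytosolic, 3 mitochondrial), against 33% of all genes. DESeq2 and limma-voom likewise called 1 member up and 0 down. Effects nevertheless lay apart by compartment: the median was 0.47 for cytosolic members, −0.58 for mitochondrial members and −0.05 for all genes. Estimates were above 0 for 19 of 20 cytosolic members and below 0 for 13 of 16 mitochondrial members. Among all 13989 genes, 6664 were above 0 and 7325 below. Library totals move the median of all genes by −0.60 within WT and −0.46 within KO. Under them the cytosolic median was −0.10 with 6 of 20 above 0, and 16 of 16 mitochondrial members were below 0. So were 10800 of the 13989 genes, while 3189 lay above 0. With the LPS titles exchanged, which takes the pairing of Lyz1 as the true one, 13 cytosolic members and Iars2 rose. Then 7 mitochondrial members fell (Aars2, Cars2, Vars2, Sars2, Pars2, Hars2 and Lars2), beside 27 and 28.1% of all genes. With treatment alone in the model, 6 members rose and 4 fell, beside 16.7 and 15.3%.

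**Figure D3:**
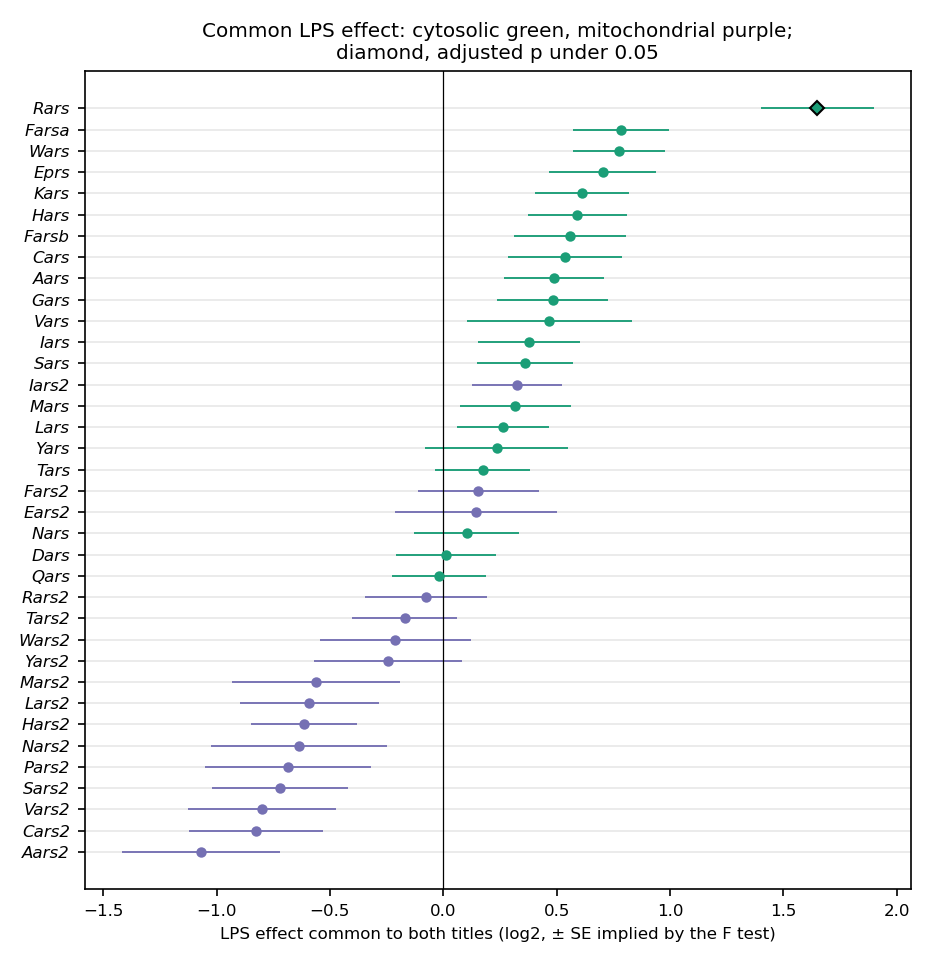
LPS effect common to both titles for each synthetase gene (log2, edgeR additive model over 4 libraries), with the standard error implied by the F test as bars; cytosolic members are green and mitochondrial members purple. The diamond marks Rars at 1.65, the member that passed at an adjusted p under 0.05. Purple points fill the lower end, down to Aars2 at −1.07.

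Several other cytosolic members were higher in both LPS libraries without passing the test. Wars (ENSMUSG00000021266, chromosome 12, 108860030 to 108894174, minus strand), the tryptophan enzyme, stood at 50.9, 52.8, 81.6 and 91.8 CPM. The untreated and LPS values did not overlap, with ratios of 1.60 (1.48 to 1.74) within WT and 1.74 (1.62 to 1.87) within KO, and of 1.80 and 1.55 with the LPS titles exchanged. Its edgeR effect was 0.78 ± 0.20 (adjusted p = 0.0678). The interferon-induced comparison genes, of which 7 of 7 measured rose (6 under library totals), had a median edgeR effect of 4.87. Farsa, the alpha subunit of the phenylalanine enzyme, stood at 36, 37.7, 54.0 and 71.0 CPM, with an edgeR effect of 0.78 ± 0.21 (adjusted p = 0.0732). Its partner subunit Farsb had 1.16-fold (1.04 to 1.30) within WT and 1.77-fold (1.60 to 1.96) within KO. With the titles exchanged the ratios were 1.97 and 1.43 for Farsa and 1.49 and 1.38 for Farsb. Eprs, the fused glutamate and proline enzyme, stood at 117, 90.9, 160 and 167 CPM. Kars, the lysine enzyme, stood at 71.6, 69.7, 102 and 109 CPM. Eprs and Kars were thus higher in both LPS libraries than in either untreated one, and their effects of 0.70 and 0.61 stayed above 0 under library totals, at 0.13 and 0.04. Other members barely differed: Nars ranged from 247 to 269 CPM and Qars, the glutamine enzyme, from 109 to 116 CPM.

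By the rule for 2 libraries, a gene was called at a 2-fold ratio with an interval excluding no change. Within the WT titles, 1 member was called higher (Rars) and 2 lower (Aars2 and Cars2), against 15.4 and 15% of 12326 genes. Within the KO titles, 2 were called higher (Rars and Vars) and 0 lower, against 14.6 and 17.8%. Within both titles, Rars was higher and 0 members were lower, against 10.4 and 8.9%. Those shares lay below the background. With the LPS titles exchanged, Rars was called higher and Aars2 lower in both comparisons and Vars2 lower in 1. Of all genes, 14.1% were then higher and 15.6% lower in the LPS library titled KO, and 13.7 and 15% in the one titled WT. At 1.5-fold the compartments differed in direction, but not every count lay above the share of all genes. Within WT, 3 of 20 cytosolic members were higher, below the 23.2% of all genes. There, 9 of 16 mitochondrial members were lower, above the 25.3% of all genes. Within KO, 10 of 20 cytosolic members were higher and 8 of 16 mitochondrial members lower, above the 23.6 and 29.2% of all genes. Under exchanged LPS titles, 6 cytosolic members were higher and 5 mitochondrial members lower in the LPS library titled KO, against 22.1 and 26.6%. In the LPS library titled WT they numbered 4 and 8, against 20.6 and 26%. No mitochondrial member was called higher and no cytosolic member lower in any of these 4 comparisons. Within both titles at 1.5-fold, 2 of 20 cytosolic members (Rars and Wars) were higher, below the 15.4% of all genes. In the same way, 8 of 16 mitochondrial members were lower, above the 16.9% of all genes. The median log2 ratio was 0.20 within WT and 0.61 within KO for cytosolic members. It was −0.61 and −0.56 for mitochondrial members, and −0.01 and −0.07 for all genes. Under exchanged titles the medians were 0.52 and 0.28 for cytosolic and −0.44 and −0.63 for mitochondrial members. Under library totals the cytosolic medians were −0.41 and 0.14, while the gap between compartments was 0.81 within WT under that scaling and under TMM, and 1.16 against 1.17 within KO.

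**Figure D4:**
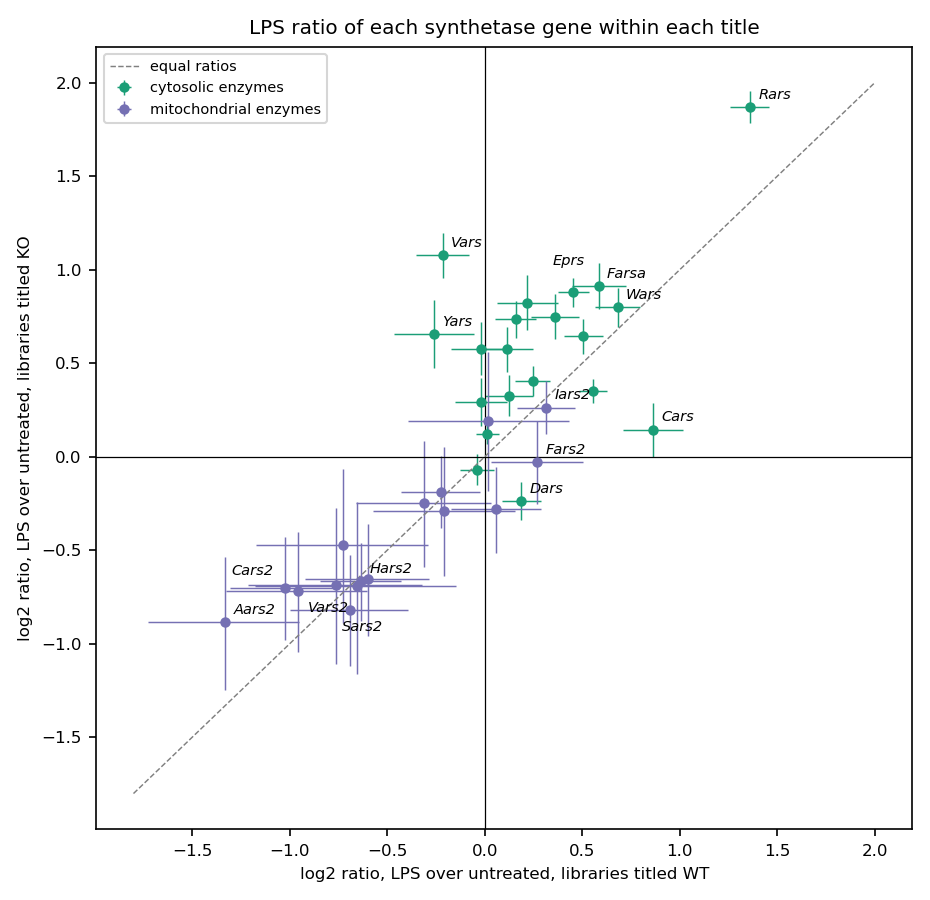
Log2 ratio of LPS over untreated for each synthetase gene, within the titles WT on the horizontal and KO on the vertical axis, with 95% counting intervals; the dashed line marks equal ratios. Mitochondrial members (purple) gather at lower left around medians of −0.61 and −0.56. Cytosolic members (green) lie mostly at upper right, with Rars at the far end and Vars and Yars above 0 on the vertical but below 0 on the horizontal axis.

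The mitochondrial enzymes with the lowest LPS effects were those for alanine, cysteine and valine. Aars2 (ENSMUSG00000023938, chromosome 17, 45506841 to 45520843, plus strand) stood at 11.0, 9.94, 4.37 and 5.38 CPM. It was 2.51-fold lower (1.93 to 3.30) after LPS within WT and 1.85-fold lower (1.45 to 2.38) within KO. By the authors' deposited table, again from 1 library per group, the Aars2 log2 fold was −1.30 within WT and −0.88 within KO. Its edgeR effect was −1.07 ± 0.35 (adjusted p = 0.107). Cars2 (ENSMUSG00000056228, chromosome 8, 11513977 to 11550783, minus strand) stood at 17.9, 15.1, 8.79 and 9.30 CPM, 2.03-fold lower (1.68 to 2.47) within WT and 1.63-fold lower (1.35 to 1.97) within KO. It shares 984 bases with Naxd on the other strand, which stood at 44.1, 43.2, 40.9 and 42.6 CPM. Vars2 (ENSMUSG00000038838, chromosome 17, 35655634 to 35667592, minus strand) stood at 10.3, 11.2, 5.30 and 6.79 CPM, 1.94-fold lower (1.52 to 2.51) within WT and 1.65-fold lower (1.32 to 2.06) within KO. In all 3 genes the LPS values lay below both untreated values, so they were lower under either pairing. With the titles exchanged, Aars2 was 2.04-fold and 2.28-fold lower, Cars2 1.92-fold and 1.72-fold, and Vars2 1.52-fold and 2.11-fold.

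The other mitochondrial members named by the same rule followed this order of libraries. Sars2, for serine, stood at 12.8, 13.8, 7.92 and 7.83 CPM, and Hars2, for histidine, at 26.6, 25.5, 17.1 and 16.1 CPM. Lars2, for leucine, stood at 11.2, 12.3, 7.40 and 7.83 CPM. Hars2 shares 198 bases with Hars on the other strand, which stood at 48.6, 41.4, 62.4 and 69.6 CPM and so lay the other way. Pars2, for proline, stood at 6.21, 6.69, 3.67 and 4.16 CPM, and Nars2, for asparagine, at 4.49, 5.53, 2.85 and 3.43 CPM. These 5 genes were between 1.51-fold and 1.76-fold lower in every within-title comparison, with edgeR effects from −0.72 to −0.59, none past the threshold. Not every mitochondrial enzyme was lower. Iars2, for isoleucine, was 1.24-fold (1.12 to 1.38) higher within WT and 1.20-fold (1.09 to 1.32) higher within KO. Ears2, for glutamate, had ratios of 1.01 (0.760 to 1.35) and 1.14 (0.882 to 1.48). Fars2 and Rars2 had ratios on different sides of 1 in the titles.

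Between titles at the same treatment, no member was called at 2-fold, untreated (3.18% of genes higher and 2.07% lower in KO) or after LPS (3.36 and 4.76%). The median log2 ratio of KO over WT in untreated cells was −0.01 for cytosolic and 0.11 for mitochondrial members. After LPS it was 0.21 for cytosolic members, 18 of 20 of them above 0, and 0.07 for mitochondrial members, beside −0.02 for all genes. At 1.5-fold after LPS, Rars (1.52), Vars (1.74) and Yars (1.53) were higher in the KO library. These 3 of 36 members were near the share of all genes, 8.21%. Exchanging the titles turns the direction of every ratio between these LPS libraries. The edgeR effect of the title common to both treatments called 0 members, 0 of them with an unadjusted p under 0.05 (0.279% of all genes), and estimates ran from −0.16 to 0.34. DESeq2 and limma-voom called 0 as well. With the LPS titles exchanged, edgeR called Vars lower in KO (−0.66, adjusted p = 0.0241), where 3.9% of genes were higher and 3.29% lower.

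The LPS ratio was larger in the KO than in the WT titles, beyond counting error, for 15 of 20 cytosolic and 0 of 16 mitochondrial members. It was smaller for 3 cytosolic members (Aars, Cars and Dars) and 1 mitochondrial member (Rars2). Of all genes, 27.9% were larger and 32.9% smaller, so counting intervals alone set apart most genes. Mitochondrial members mostly had fewer counts and wider intervals, so the counts of the compartments are not on equal terms. Aars2, at 0.44 (−0.06 to 0.95), was not beyond counting error, while Nars, at 0.11 (0.03 to 0.19), was. The median difference was 0.32 (log2) for cytosolic and 0.00 for mitochondrial members. The direction for cytosolic members rests on the titles. With those of the LPS libraries exchanged, 13 of 20 cytosolic members and 1 of 16 mitochondrial members had the smaller ratio in KO and 1 cytosolic member (Eprs) the larger, beside 21.6 and 16.4% of all genes. The cytosolic median was then −0.22. Vars (ENSMUSG00000007029, chromosome 17, 35000987 to 35016322, plus strand), the valine enzyme, differed most. It stood at 51.5, 36.6, 44.4 and 77.2 CPM, so the LPS KO library was highest and the untreated KO library lowest. Its ratio was 0.861 (0.785 to 0.945) within WT and 2.11 (1.94 to 2.29) within KO, a difference of 1.29 (1.11 to 1.47). With the LPS titles exchanged its ratios were 1.5 and 1.21. Mars, the methionine enzyme, stood at 35.1, 31.2, 34.7 and 46.6 CPM, with a difference of 0.59 (0.39 to 0.80). With the titles exchanged its ratios were 1.33 and 1.11. Mars shares 68 bases with Ddit3 on the other strand, which stood at 27.4, 61.1, 49.4 and 13.6 CPM. Lyz1 was high in the untreated KO and LPS WT libraries, where Vars was at its 2 lowest levels, and the part of any mix-up of labels in these differences was not tested.

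**Figure D5:**
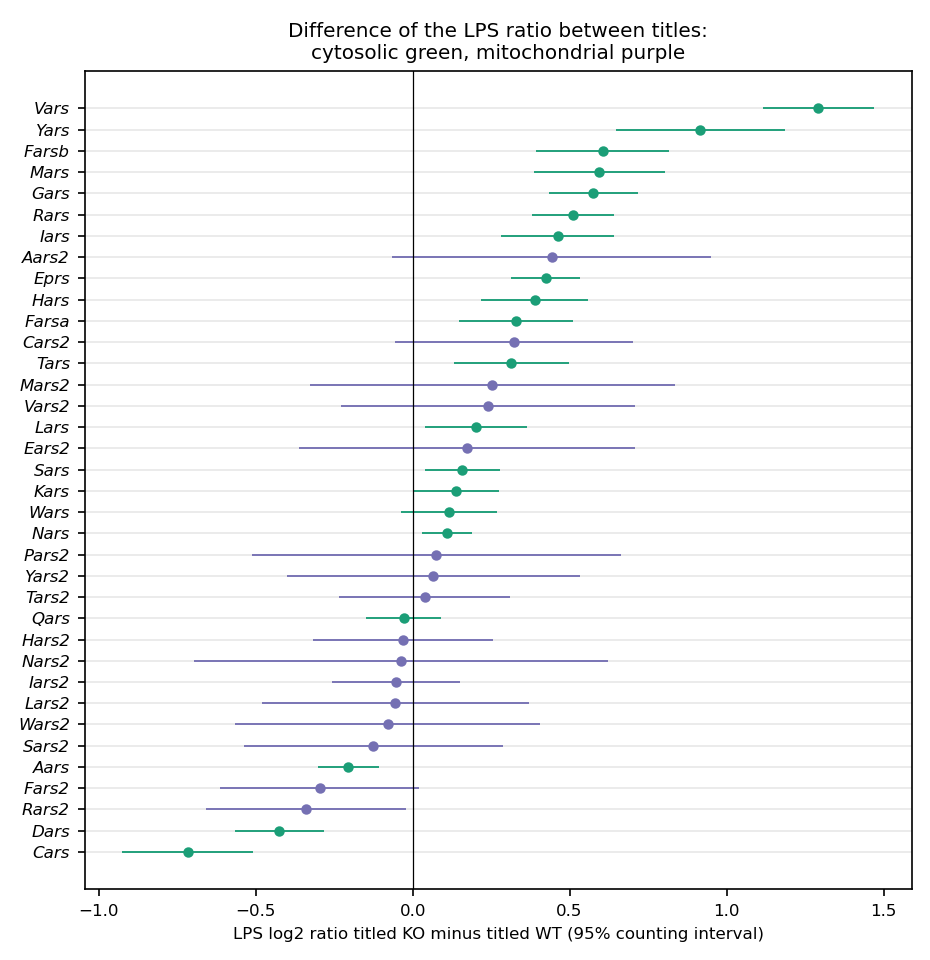
Difference of the LPS log2 ratio between titles (KO minus WT) for each synthetase gene, with 95% counting intervals; cytosolic members are green and mitochondrial members purple. Vars at 1.29 and Yars at 0.92 lie at the upper end and Cars at −0.72 at the lower end. Of the purple intervals, 15 of 16 include 0.

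By structural class, the median common LPS effect was 0.42 for 10 genes listed as class I, which ranged from −0.02 to 1.65. The fused Eprs was counted there as a whole. The median was 0.49 for 10 genes listed as class II, from 0.01 to 0.78, among them both subunits of the phenylalanine enzyme. The difference between the classes was not tested. The 8 enzymes of the multisynthetase complex had a median of 0.35, with 1 rising (Rars). Of the 3 scaffold proteins of that complex, 0 passed. Eef1e1, a scaffold protein, stood at 11.2, 13.8, 23.4 and 26.8 CPM (edgeR effect 1.05, adjusted p = 0.0542), while Aimp1 and Aimp2 had effects of 0.17 and −0.12. Of the 4 subunits of cytosolic elongation factor 1, which brings charged tRNA to the ribosome, 0 passed and the median was 0.39.

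In mitochondria, glutaminyl-tRNA is made by amidation of glutamyl-tRNA, and the initiator methionyl-tRNA is formylated. Of the 4 genes of these steps, 1 fell in edgeR's test. Gatc, an amidotransferase subunit, stood at 30.5, 26.1, 10.3 and 9.30 CPM and fell by 1.49 ± 0.25 (log2, adjusted p = 0.0244). Estimates for Gatb, Qrsl1 and Mtfmt were −0.55, −0.79 and −0.68 (log2), none past the threshold, and the median of the 4 was −0.73. Of 8 mitochondrial translation factors, 0 passed, with a median of −0.25. The lowest of them, the initiation factor Mtif2, had −0.95 (adjusted p = 0.0637).

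The kinases and phosphatase subunits that set phosphorylation of eIF2alpha, the signal upstream of ATF4, were listed with Gcn1l1 and Impact, which are neither. The genes of this list differed among themselves. Of 8 measured, 3 rose and 1 fell in edgeR's test, beside 9.35 and 5.14% of all genes. With library totals or exchanged titles, 3 rose and 3 fell. Of 13989 genes, 916 rose and 3133 fell with library totals, and 27 and 28.1% did with exchanged titles. Ppp1r15a, a phosphatase subunit, stood at 14.7, 15.9, 277 and 413 CPM (4.50, adjusted p = 0.00460), and Ppp1r15b rose by 3.04. The interferon-induced kinase Eif2ak2 rose by 2.13, and the endoplasmic reticulum kinase Eif2ak3 fell by 2.20. Atf4 itself stood at 88.8, 131, 103 and 92.8 CPM, an effect of −0.11, which says nothing of its protein, since Atf4 is controlled in translation. Of 24 genes of the ATF4 and amino acid response list, 5 rose (Nupr1, Psat1, Mthfd2, Atf3 and Asns, effects 3.92 to 1.07) and 3 fell. Those that fell were Ddit4 (−4.09), Sesn2 (−2.65) and Cebpg (−1.15). Of all genes, 9.35 and 5.14% did. Under library totals 2 rose and 4 fell, where 916 and 3133 of 13989 genes did. The list's median then went from 0.27 to −0.30, and Psat1, Atf3 and Asns no longer passed. Under exchanged titles 9 rose and 8 fell, beside 27 and 28.1% of all genes. Asns, asparagine synthetase, stood at 27.3, 32.7, 53.4 and 70.3 CPM. The motif TGATGNAA lay in 7 of the 21 promoters of that list found (33.3%). It lay in 3 of 11 found for amino acid transporters (27.3%), beside 38.5% for cytosolic synthetases. LPS effects of the 7 genes lay on both sides of 0. They were 3.92 for Nupr1, 1.28 for Atf3, 1.07 for Asns and 0.01 for Pycr1. For Chac1, Vldlr and Trib3 they were −2.66, −1.97 and −1.47, none past the threshold. Counts were few, at 27, 46, 7 and 1 for Chac1 and 66, 56, 3 and 22 for Vldlr. Of the cytosolic synthetases with the motif, Aars had an LPS effect of 0.49, Gars 0.48, Iars 0.38, Yars 0.23 and Tars 0.17. None of them passed, and the median of all cytosolic members was 0.47. The part of the motif in these effects was not tested.

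Amino acid transporters moved in both directions. Of 14 measured, 6 rose and 2 fell, beside the same 9.35 and 5.14%. Under library totals 4 rose and 3 fell, where 916 and 3133 of 13989 genes did, and the median went from 0.30 to −0.28. Under exchanged titles 6 rose and 3 fell, beside 27 and 28.1% of all genes. Slc7a2, a carrier of arginine and other cationic amino acids, stood at 3.90, 3.25, 155 and 125 CPM and rose by 5.32 (log2, adjusted p = 0.00438 in edgeR's test). Slc7a1, another cationic carrier, rose by 1.84, and Slc7a11, the cystine carrier, by 2.74. Slc43a2 fell by 1.57 and Slc38a2 by 1.54. Of the MYC genes, Max rose by 1.13 (adjusted p = 0.0469), a call lost under library totals (0.56, adjusted p = 0.167), and Myc stood at 9.48, 5.50, 13.5 and 11.1 CPM (0.79, adjusted p = 0.171).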

How the data were processed

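The members and all gene lists were chosen with earlier results of these data known. The submitters' processing notes name HISAT2 2.0.5 and mm10. How reads were counted, whether by strand, and which test the authors ran is not stated in those notes, and 11 of 36 members overlap another protein-coding gene. The deposited table held read counts per gene and the authors' FPKM for each library, and the authors' log2 folds and p-values for 4 comparisons, per the file headers. A further 8 per-sample columns were left out. GENCODE M21 held all 36 identifiers, 33 at the same position. Counts were scaled by TMM in edgeR 4.0.16. Comparisons of 2 libraries used ratios of scaled counts with exact binomial 95% intervals, called at 2-fold (prior count 2) with a mean of at least 1 CPM. The difference of LPS ratios used Poisson errors (delta method). The additive model of title and treatment used edgeR's quasi-likelihood F test after filterByExpr, with Benjamini-Hochberg adjustment over 13989 genes and a threshold of 0.05; the SE is the one implied by F. The model was also run on simulated counts with known LPS effects, no title effect and the same spread for every gene. That setting is simpler than these data and does not test how well the model suits them. DESeq2 1.42.0 and limma 3.58.1 were alternatives. Named members were the 12 of largest absolute common LPS effect, any member called, and Wars, Lars2, Mars and Eprs; of other genes, up to 4 per list past the test, with Atf4, Myc, Fbxw7 and Lyz1. Farsb, Nars, Hars, Qars, Iars2, Ears2, Cars, Yars, Dars Naxd, Ddit3, C77080, Lyz2, Xcr1, Lck, the list genes that did not pass, and those named beyond 4 per list (Mthfd2, Atf3, Asns, Cebpg, Slc43a2 and Slc38a2) were named after their values were seen. Zbtb46 and Flt3 were also named after their values were seen. Promoters came from RefSeq (GRCm38.p6). The promoter sequence of Aars is not reported here. Class motifs in proteins were not analysed here. R 4.3.3 and Python 3.11.15 were used.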

Additional observations from a re-analysis of the deposited data

Results flagged for a closer look

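For 3 cytosolic members the LPS and untreated libraries differed in opposite directions in the 2 titles, each beyond its counting interval; with 1 library per group the difference between titles was not tested. Vars had an LPS log2 ratio larger by 1.29 in the KO than in the WT titles, and Yars, the tyrosine enzyme, one larger by 0.92. Dars, the aspartate enzyme, had a difference of −0.42. Yars stood at 22.8, 18.5, 19.0 and 29.1 CPM in the libraries untreated WT, untreated KO, LPS WT and LPS KO. It shares 30 bases with C77080 on the other strand, which stood at 26.0, 66.9, 13.6 and 6.85 CPM. Dars stood at 76.4, 88.5, 87.0 and 75.1 CPM, so its 2 higher values lay in the untreated KO and LPS WT libraries, as those of Lyz1 did. With the titles of the LPS libraries exchanged, the ratios were 1.28 and 1.03 for Yars and 0.98 and 0.98 for Dars. Whether a mix-up of labels plays a part was not tested.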

How the results depend on the processing

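No paired analysis was possible because each group holds 1 library, beyond the additive model, which takes the title as its block. With 1 library per group, no replicate could be left out of a comparison of 2 libraries, and the search for class motifs in proteins was not run. Alternatives with exchanged titles in comparisons of 2 libraries and in the difference between titles, and those of the mitochondrial share, were chosen after seeing the data. Counts of members called in comparisons of 2 libraries were small and changed with the rule. At 1.5-fold, 3 of 36 were higher and 9 lower within WT, against 23.2 and 25.3% of all genes. Within KO, 10 were higher and 8 lower, against 23.6 and 29.2%. After LPS, 3 were higher in KO, near the 8.21% of all genes. Under library totals, 0 were higher and 9 lower within WT, and 1 higher and 8 lower within KO. The median log2 ratio of all genes was then −0.62 within WT and −0.54 within KO. With DESeq2 size factors 1 was lower within WT, and by FPKM with a pseudocount of 1 it was 0. With the LPS titles exchanged, 1 was higher and 1 lower in the comparison with the LPS library titled KO. With both the titles exchanged and 1.5-fold, 6 were higher and 5 lower in that comparison, and 4 and 8 in the other. Under library totals the cytosolic median was −0.41 within WT, a reversal, and 0.14 within KO; the mitochondrial medians were −1.21 and −1.02. By FPKM the mitochondrial medians were −0.21 and −0.20, since the pseudocount shrinks ratios of genes of low FPKM.

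In the additive model, the members that rose numbered 3 with no filter, 14 with exchanged titles, 6 with treatment alone and 3 at an adjusted p of 0.1. Leaving out 1 library each, with treatment alone, gave 1 to 3: 2 without the untreated WT library, 3 without the LPS WT library and 2 without the LPS KO library, where the lone library of an arm is assumed to vary like the others. Those that fell numbered 6 under library totals, 1 with no filter, 7 with exchanged titles and 4 with treatment alone. Of all 13989 genes, 3133 fell under library totals, 28.1% with exchanged titles and 15.3% with treatment alone. In those settings the share of members of both compartments together that fell lay below that of all genes. Every member that fell there was mitochondrial: 6 of 16 under library totals, 7 of 16 with exchanged titles and 4 of 16 with treatment alone. Among mitochondrial members alone, the share that fell thus lay above that of all genes in each of those settings. The shares of all genes that rose were 27% with exchanged titles and 16.7% with treatment alone. With exchanged titles the KO effect called 1 member lower. Under library totals 2 members had a smaller LPS ratio in KO beyond counting error, in place of 4. With exchanged titles the members with a larger LPS ratio in KO numbered 1 in place of 15, and those with a smaller one 14, so that direction turned.

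Library totals also reversed the common LPS effect of 16 members. The values were −0.085 for Aars, −0.036 for Cars, −0.56 for Dars, −0.017 for Farsb, −0.092 for Gars, −0.20 for Iars, −0.31 for Lars and −0.26 for Mars. They were −0.47 for Nars, −0.21 for Sars, −0.40 for Tars, −0.11 for Vars, −0.34 for Yars, −0.43 for Ears2, −0.42 for Fars2 and −0.25 for Iars2. Members near 0 reversed elsewhere. Dars had −0.025 with no filter, −0.083 without the untreated WT library and −0.086 without the LPS WT library. Qars had 0.0094 with DESeq2 size factors, 0.0081 without the LPS WT library and 0.020 with DESeq2. Without the LPS KO library, Yars had −0.077 and Rars2 0.035.

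The mitochondrial share kept its order, with both LPS libraries below both untreated ones. It was 10.8, 11.2, 7.29 and 6.30% by FPKM, 13.5, 14.0, 9.70 and 8.88% without Rars, and 15.4, 15.9, 10.3 and 9.13% without Nars. On the gene's strand alone, TGATGNAA lay in 1 member promoter and the interferon-stimulated element core in 0. At 36 members and 1 library per group, depth limits the mitochondrial members most: the LPS counts of Nars2, the fewest, were 49 and 56.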
